A study of Arabidopsis thaliana with 72 samples.

Results

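TΨG sites are positions of pseudouridine (Ψ) at which the RNA base before the modified U is also a U and the base after it is a G. They were taken from the list of Ψ sites by the listed sequence alone, as the sites on chromosomes 1 to 5 with T before and G after the modified T, and their levels had no part in the choice. There were 1120 TΨG sites among 8275 nuclear sites and 8512 sites in all, and the other 7155 nuclear sites serve as the reference below. Poly(A)+ RNA of Col-0 *Arabidopsis thaliana* was mapped by BID-seq, in which bisulfite forms an adduct on Ψ that is read as a deletion after reverse transcription. The 9 tissues were flower, silique, cauline leaf and stem collected after flowering, mature dry seed, seedlings grown for 7 days, shoots and roots separated after 14 days, and rosetta leaf after 30 days. Each tissue had 5 to 7 bisulfite-treated and 1 or 2 input libraries, 72 in all, and no mutant or treatment was included. The replicate libraries of a tissue had been combined into 1 Ψ fraction, the estimated share of molecules that carry Ψ, and 1 call, which marks that the site passed the authors' filter in that tissue. The fractions below therefore have no error between libraries, and the depth behind each is unknown.

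Ψ is an isomer of uridine in which the base is joined to the sugar through carbon instead of nitrogen, and it is made after transcription by pseudouridine synthases. Some of these enzymes are guided to rRNA and spliceosomal RNA by H/ACA small RNAs, whereas stand-alone synthases read the sequence and fold around the target U in tRNA and mRNA. A deletion inside a run of U has no unique position in the alignment, and at a TΨG site the modified U is by definition the last U of a run that ends at a G. Which U of the run carried Ψ therefore cannot be told apart for TΨG sites. Among the other nuclear sites in runs of 2 or more U, the listed base was the last U in 76.7% on the plus strand and 80.6% on the minus strand.

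The sequences that the results below turn on are shown first, as 29 bases in the sense of the transcript from the RefSeq copy of the TAIR10 genome, with T for U. Capitals mark the 8 bases from 3 before to 4 after the listed U, and the listed U is base 15. The first set holds sites with the most frequent 8 bases. They lie in the coding sequence (CDS) of a chloroplast chaperone, of a ribosomal protein L13 gene and of a cation efflux gene, and in the 3′-UTR of CPISCA, a chloroplast protein of the ISCA type that works in iron-sulfur cluster assembly.

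cpHsc70-1, chr4:12592187-12592215, plus strand: aatcctgacgaGGTTGTAGcgttaggtgc
AT3G07110, chr3:2252158-2252186, plus strand: cgcttggcttcGGTTGTAGcaaaggatct
AT1G51610, chr1:19138904-19138932, plus strand: tgtgttgtgtaGGTTGTAGattctttata
CPISCA, chr1:3460078-3460106, minus strand: ctttgtattatGGTTGTAGaatgctcaaa

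The second set holds CDS sites with high fractions that shared the 6 bases UUGGAG. CA1 encodes the chloroplast carbonic anhydrase, PDH-E1 BETA a subunit of pyruvate dehydrogenase, EMB506 an ankyrin repeat protein, PnsL1 a subunit of the chloroplast NDH complex and THFS an enzyme of one-carbon folate metabolism.

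CA1, chr3:195810-195838, minus strand: aaatacggtggCGTTGGAGcagccattga
PDH-E1 BETA, chr1:10585107-10585135, minus strand: accggtatgggCATTGGAGctgccatgac
EMB506, chr5:16063173-16063201, minus strand: tatgcagttcaAGTTGGAGccttgcagac
PnsL1, chr2:16477558-16477586, plus strand: tacactctcatAGTTGGAGcaaatgagag
THFS, chr1:18704550-18704578, plus strand: gtaagaggaagCATTGGAGctggtttcat

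The third set holds sites in structured RNA, and the last set holds 3′-UTR sites that follow a long run of U. In the tRNA-His genes the listed U is the base before the GUG anticodon.

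tRNA-His AT4G02055, chr4:901194-901222, plus strand: ttagtatcccaCGTTGTGGccgtggggac
U1.7 small nuclear RNA, chr3:1657888-1657916, plus strand: tggcagcggggGTTTGCGTtcgcgcagcc
U6-26 small nuclear RNA, chr3:4561116-4561144, plus strand: acatccgataaAATTGGAAcgatacagag
AT2G03875 non-coding RNA, chr2:8733-8761, plus strand: tcaggtggggaGTTTGGCTggggcggcac
AT4G25940, chr4:13169724-13169752, minus strand: ttaccttttttTTTTGGTTtagtttgatt
TGA4, chr5:3137402-3137430, minus strand: tgttcttttttTTTTGTATgtaatattat

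TΨG sites were called more often than the other nuclear sites in each tissue except root. In flower 431 TΨG sites were called, or 38.5% (35.7–41.4%; 95% Wilson interval, which covers counting error only), against 27.7% (26.6–28.7%) of the other nuclear sites and 29.1% of all nuclear sites. In root 351 were called, or 31.3% (28.7–34.1%), against 31.8% (30.7–32.9%) of the other nuclear sites and 31.7% of all. Root was thus the tissue with the most calls among the other sites but not among the TΨG sites, which were called most often in flower.

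In seedling 347 TΨG sites were called (28.3–33.8%), where 25.8% of all nuclear sites were called. The share called was 29.6% in stem against 23.5% of all nuclear sites, and 27.3% in shoot against 21.9%. In silique the shares were 24.9% of TΨG sites and 19.3% of all nuclear sites. In these tissues the intervals of TΨG and other sites did not overlap. The intervals cover counting error only, and the same sites are counted in each tissue, so the tissues are not separate tests. The same held for seed, with 23.3% of TΨG sites against 17.9% of all nuclear sites. It also held for rosetta leaf, with 22.4% against 19.4%, and for cauline leaf, with 21.3% against 18.3%, where the gap between the intervals was narrow. In all, 1110 TΨG sites (99.1%) were called in at least 1 tissue, near the 97.5% of all nuclear sites, since the list holds few sites without a call.

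**Figure D1:**
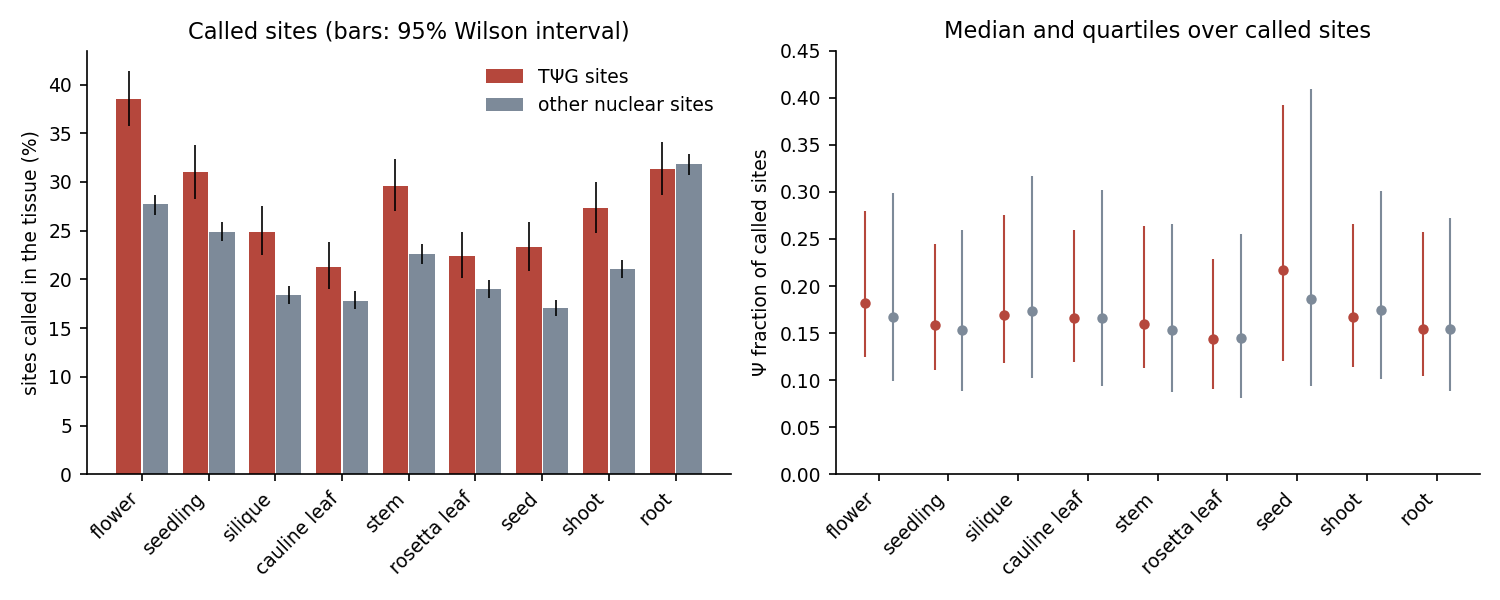
Left, share of TΨG and of other nuclear sites called in each tissue (percent, with 95% Wilson intervals); right, median Ψ fraction of the called sites with quartiles over sites. The share was higher among TΨG sites in each tissue except root, while the medians of the 2 groups of sites lay close together.

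The Ψ fraction of called TΨG sites was low in most cases. Over all 2797 calls of TΨG sites the median fraction was 0.167 (quartiles 0.113 and 0.268), against 0.161 (0.0925 and 0.290) over the 14332 calls of other nuclear sites. Fractions above 0.5 made up 10.6% of the TΨG calls and 12.9% of the other calls. TΨG calls thus spread less towards both ends than the other calls. In protein-coding genes the medians were 0.155 for TΨG sites and 0.150 for other sites, and 5.11% and 7.68% of the calls were above 0.5.

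By tissue the median of called TΨG sites ran between 0.144 in rosetta leaf and 0.217 in seed. The corresponding medians of other sites were 0.145 in rosetta leaf and 0.186 in seed. Seed had the largest gap between the 2 groups of sites, and its quartiles were wide, 0.120 and 0.392 for TΨG sites against 0.0939 and 0.409 for the others. The seed median of TΨG sites was 0.167 in protein-coding genes alone and 0.184 without repeated windows. In flower the medians were 0.182 for TΨG and 0.167 for other sites, and in root both were 0.154.

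TΨG sites were also called in more tissues each. Of the 1120 sites, 592 (52.9%, 49.9–55.8%) were called in exactly 1 tissue, against 59.5% of the other nuclear sites and 58.6% of all nuclear sites. At the other end 195 TΨG sites (17.4%) were called in at least 5 tissues, against 10.8% of the other sites. In each of the 9 tissues 23 TΨG sites (2.05%, 1.37–3.06%) were called, against 1.16% of the other sites and 1.28% of all nuclear sites. With seed left out, 40 TΨG sites were called in each of the other 8 tissues.

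**Figure D2:**
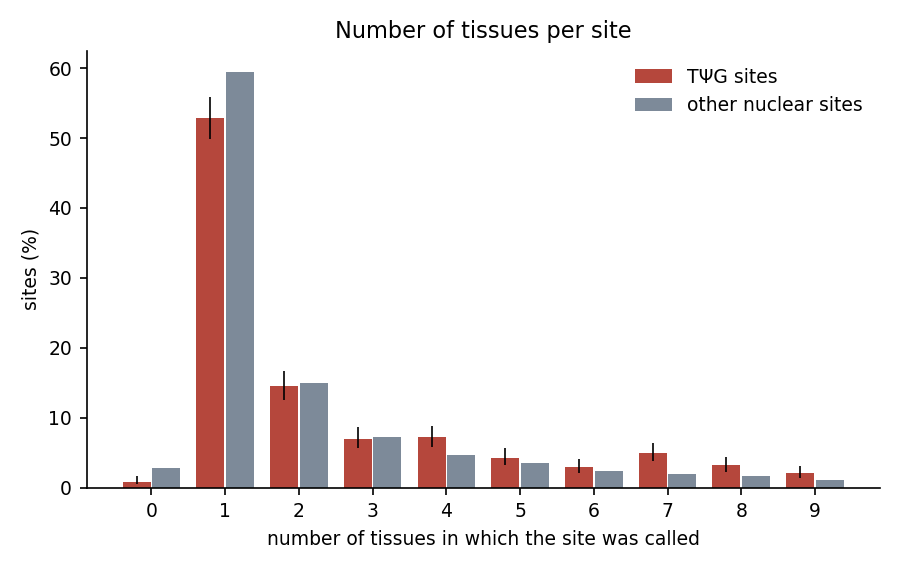
Share of TΨG and of other nuclear sites (percent) by the number of tissues in which the site was called. TΨG sites had a smaller share called in 1 tissue (52.9% against 59.5%) and a larger share called in 9 (2.05% against 1.16%).

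A call in only 1 tissue did not mean that Ψ was listed there alone. Of the 592 sites, 15 had a fraction of 0 or no value in all other tissues, and 266 had a higher fraction in another tissue where they were not called. Root held 116 such sites, flower 106 and seed 104, while cauline leaf held 26. The sites called only in root had a median fraction of 0.121 there, and the median of their highest fraction elsewhere was 0.108.

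Most TΨG sites lay in mRNA. Protein-coding genes held 1022 of them (91.2%), in 962 genes, of which most had 1 site each. By annotation, 20 of the others were in small nuclear RNA genes, 11 in small nucleolar RNA genes, 10 in tRNA genes and 9 in rRNA genes. A further 22 were in other non-coding RNA genes, 6 in pseudogenes and 20 outside annotated genes. For 89 sites the 31 bases around Ψ occurred more than 1 time in the genome, so that the copies cannot be told apart, and 14 sites lay in 2 genes of the same strand.

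Within protein-coding genes 781 TΨG sites (76.4%) were CDS sites, 156 (15.3%) 3′-UTR sites, 41 (4.01%) 5′-UTR sites and 44 (4.31%) intron sites. The share in the 3′-UTR was larger than the 7.74% of the other nuclear sites, and the share in introns smaller than their 8.96%. Of the 156 3′-UTR sites, however, 47 followed 8 or 9 U, as did 10 of the 41 5′-UTR sites and 0 of the CDS sites. The part of these sites, described below, in the larger 3′-UTR share was not tested. Per kilobase of the host transcripts, the density of called sites was 0.558 for the CDS, 0.495 for 3′-UTRs and 0.167 for 5′-UTRs. Set against the number of UUG instead of nucleotides, a called site was held by 2.28% of UUG of the CDS, 1.50% of those of 3′-UTRs and 0.790% of those of 5′-UTRs. The sites in introns had the highest fractions where called, with a median over sites of 0.590, against 0.145 for the CDS, 0.172 for 3′-UTR sites and 0.223 for 5′-UTR sites. The depth at intron sites is unknown, and the part of low coverage in their median was not tested. Of the 51 protein-coding sites of any region with a mean above 0.5, 34 were called in 1 tissue.

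In the CDS the rule allows 9 codons, and the valine codon GUU, with the listed U as its last base, held 214 sites (27.4%). The leucine codon UUG, with the listed U in the middle, held 153 (19.6%). The cysteine codon UGU, with the listed U as its first base, held 127 (16.3%). Phenylalanine codon UUU held 121 sites. The stop codon UGA held 2. The listed U was the first base of the codon at 22.3% of CDS sites, the middle base at 19.6% and the last base at 58.1%. It need not be the U of the run that carried Ψ. Among all UUG in the CDS of the same genes these shares were 14.1%, 29.1% and 56.8%, and the sites thus had a larger share at the first base and a smaller share at the middle base than among UUG. At like context in the genes at 20 TPM or more everywhere the order varied. Of UUG with 0 to 2 matching bases of the frequent context described below, 0.166% were called at the first base, 0.209% at the middle base and 0.176% at the last, and with 3 or 4 matching bases 1.75%, 0.444% and 0.822%.

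The bases around TΨG were far from evenly used. The commonest 5 bases were GUΨGU, at 303 sites (27.1%), followed by UUΨGU at 229 (20.4%), GUΨGC at 74, and AUΨGU and CUΨGC at 62 each. In the 955 genes with a called site, GUUGU made up 28.4% of 968 called sites and 6.48% of the 48984 UUG away from transcript ends, a ratio of 4.38. For UUUGU the ratio was 2.15, and for AUUGA, which had 5 called sites, it was 0.0819. Base composition of the host transcripts is contained in this comparison, because the UUG came from the same transcripts.

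Bases on both sides of UUG differed in this way. G at the third base before the listed U was found at 53.5% of called sites and 23.5% of UUG, a ratio of 2.28, and G at the second base before at a ratio of 1.78. After the site, U at the second base had a ratio of 2.09, and A and G at the third base had ratios of 1.79 and 1.49. G at the fourth base after was found at 57.9% of called sites and 27.6% of UUG. Farther out, G had a ratio of 1.61 at the fifth base before and 1.49 at the fourth.

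Together these bases spell GGUΨGUAG, which was also the most frequent stretch of 8 bases. It was found at 141 TΨG sites (12.6%), as in the first set of sequences above. The next were GGUUGUGG at 58 sites, GUUUGUAG at 45, GUUUGUGG at 35 and GAUUGUAG at 28. GGUUGUAG was the most frequent stretch on each of the 5 chromosomes (10.2% to 16.4% of sites), on both strands, in the CDS (13.3%) and in the 3′-UTR (16.0%). Among sites called in a tissue its share ran between 11.1% in seed and 19.3% in seedling. The stretch was chosen after the site sequences were seen, so its frequency among the sites is a description. The shares of UUG called, given below, count the same sites. The choice favours a high share for this stretch, so those shares are a description too.

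How often a UUG in this context carried a called site was counted in the 2975 protein-coding genes with at least 20 TPM (transcript abundance scaled to the same total in each library) across all tissues. Their transcripts, read on their own strand, held 129554 UUG, of which 307 (0.237%) were called as TΨG in any tissue. The 8 bases GGUUGUAG occurred 58 times, 0.0448% of these UUG, and 35 of the 58 (60.3%, 47.5–71.9%) were called. With 4 of the 5 free bases matching, 58 of 1580 (3.67%) were called, and with none matching 17 of 28084 (0.0605%). Most TΨG calls in these genes nevertheless lay outside the full 8 bases, because those are rare.

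**Figure D3:**
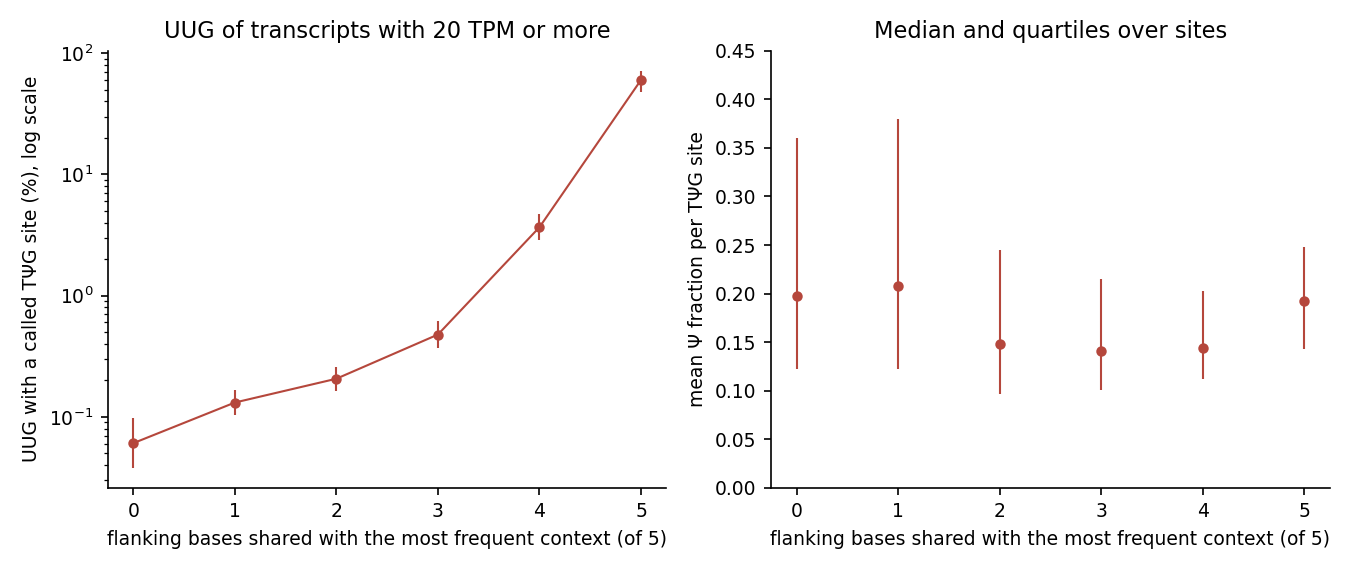
Left, share of UUG in transcripts at 20 TPM or more in all 9 tissues that held a called TΨG site (percent, log scale, 95% Wilson intervals), by the number of free bases that matched the most frequent 8 bases; right, median and quartiles of the mean Ψ fraction of TΨG sites by the same number. The called share was 0.0605% with no match and 60.3% with 5 matches, while the median fractions lay between 0.141 and 0.208 with no such order. The 8 bases were chosen from the same sites.

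UUG that differed from the 8 bases at 1 free base were called less often in every case. Those with another base than U at the second base after the site were called in 1 of 467 cases (0 of 205 with A, 0 of 122 with C and 1 of 140 with G). At the third base after, 18 of 143 were called (12.6%) where it was G, 1 of 37 where it was C and 0 of 267 where it was U, which allows a share of up to 1.12% by the limit of 3 counts for a count of 0. At the fourth base after, 1 of 55 with A, 0 of 39 with C and 1 of 78 with U were called.

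UUG with another base before the site were called in more cases, but not with C at the second base before. At the third base before, 6 of 33 were called with C (18.2%), 5 of 81 with A (6.17%) and 5 of 135 with U (3.70%). At the second base before, 9 of 75 were called with A, 10 of 91 with U and 1 of 79 with C (1.27%). The intervals of all of these lay below that of the full 8 bases. They cover counting error only and not the choice of the 8 bases from these same sites.

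The 58 full matches lay in genes of varied function. Among the 35 called, 8 sites were called in each tissue, in CPISCA, SAG24, nPAP (nuclear poly(A) polymerase), MAB1, cpHsc70-1, LSD1, AT5G49645 and AT5G53480. LSD1, a zinc finger gene that takes part in control of cell death, held another full match that was called in 6 tissues. Uncalled full matches included those of TOC159, part of the chloroplast protein import machinery, of the dynamin-like DL3 and of the glycolipid transfer protein ACD11. Expression of at least 20 TPM in each tissue was therefore not enough for a call. Of the full matches, 27 of 41 CDS ones were called (65.9%), 7 of 14 that lay in a 3′-UTR (50.0%) and 1 of 3 in a 5′-UTR. In flower 29 of the 58 (50.0%) were called, against 0.110% of all UUG of these genes, and in seed 15 (25.9%), against 0.0834%.

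The Ψ fraction had no steady order with the number of matching bases. The median over sites of the mean fraction where called was 0.192 for the 141 sites with all 5 free bases, 0.144 with 4, 0.141 with 3, 0.148 with 2, 0.208 with 1 and 0.197 for the 99 sites with none, and only 1 of the 141 had a mean above 0.5. Within a tissue the median of called full matches was above that of the other called TΨG sites in 8 of the 9 tissues, for instance 0.202 against 0.175 in flower and 0.189 against 0.138 in rosetta leaf, and below it in seed, with 0.202 against 0.217. The hosts of full matches had lower expression, with a median of 59.3 for the highest TPM over tissues, against 110 to 144 in the other classes, and its part in these medians was not tested. The full matches were called in more tissues, 26.2% in at least 5 tissues against 11.1% of sites with no match. Between these the share had no steady order, with 16.7% at 1 match, 12.7% at 2, 21.8% at 3 and 16.3% at 4. The base after TΨG gave another order in protein-coding genes. The median was 0.201 for the 105 called sites with G there, 0.167 with C, 0.146 with U and 0.142 with A, and 15.2% of the sites with G had a mean above 0.5, against 2.49% of the 602 sites with U.

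Among mRNA sites of high fraction a different sequence recurred. In protein-coding genes 13 TΨG sites were called in at least 3 tissues with a mean above 0.5, none of them with the full 8 bases, and 7 had G after TΨG. The 6 bases UUGGAG, the commonest among them, were shared by 4, in CA1, PDH-E1 BETA, EMB506 and PnsL1. Over all TΨG sites 17 had these 6 bases, and their mean fractions ran between 0.0556 (the dehydrin gene LEA) and 0.881 (an intron site of AT4G31405), with a median of 0.280. In the genes at 20 TPM or more everywhere 5 of 3074 UUGGAG (0.163%) were called, below the 0.237% of all UUG. These 6 bases were picked after the fractions were seen.

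Among mRNA sites called in at least 3 tissues CA1 had the highest mean fraction, 0.866 over 8 tissues. Its fraction was 0.842 in flower, 0.824 in seedling, 0.879 in silique, 0.898 in cauline leaf, 0.902 in stem, 0.809 in rosetta leaf, 0.873 in shoot and 0.896 in root, and an uncalled 0.725 in seed. The fraction was high both in rosetta leaf, at 1237 TPM, and in root, at 6.27 TPM. The listed U is the last base of a GUU valine codon.

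PDH-E1 BETA had fractions of 0.634 in flower, 0.779 in seedling, 0.729 in silique, 0.777 in cauline leaf, 0.668 in stem, 0.754 in rosetta leaf, 0.706 in shoot and 0.506 in root, all called, and an uncalled 0.884 in seed at 1.31 TPM. Root had the lowest of these values, at 155 TPM. MAB1, which encodes the corresponding mitochondrial subunit of pyruvate dehydrogenase, carried a TΨG site of the frequent 8 bases instead. Its fractions ran between 0.235 in seedling and 0.300 in flower, and it was called in each of the 9 tissues.

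EMB506 was called in 8 tissues with fractions between 0.527 in seedling and 0.840 in rosetta leaf, and was listed at 0 in root, where the gene had 6.90 TPM. PnsL1 was called in 7 tissues between 0.367 in rosetta leaf and 0.628 in stem. Its uncalled values were 0.639 in root at 0.705 TPM and 0 in seed at 2.09 TPM. Uncalled fractions of this kind came from tissues with little of the transcript, and what part low coverage has in them was not tested.

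Other mRNA sites of high fraction had neither sequence. AT1G64650, a gene of the major facilitator superfamily of transporters, had fractions between 0.617 in seedling and 0.773 in rosetta leaf over the 8 tissues where it was called. AT5G22140, an oxidoreductase gene, had between 0.675 in silique and 0.854 in shoot over 6 tissues, in its 3′-UTR. THH1 had between 0.582 in seedling and 0.814 in seed over 8 tissues. ECT9, of the YTH family that includes readers of N6-methyladenosine, had between 0.415 in silique and 0.697 in stem over 5 tissues.

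The 23 sites called in each tissue covered the whole range of levels. PHT4;1, a chloroplast phosphate transporter, had fractions of 0.621 in flower, 0.693 in seedling, 0.767 in silique, 0.634 in cauline leaf, 0.729 in stem, 0.658 in rosetta leaf, 0.825 in seed, 0.650 in shoot and 0.452 in root. At the low end NIT1, a nitrilase, had between 0.0529 in rosetta leaf and 0.109 in root. Between them lay AT3G19910, a RING/U-box gene, with 0.343 in stem to 0.455 in seedling, and ACT7, an actin gene, with 0.136 in shoot to 0.288 in root.

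The 23 sites differed in how far their tissues lay apart. The distance between the highest and the lowest tissue had a median of 0.111 and ran between 0.0527 and 0.569. For the 8 of them with the frequent 8 bases its median was 0.0754. SAG24, the senescence associated gene 24, for instance had fractions of 0.265 in flower, 0.248 in seedling, 0.218 in silique, 0.212 in cauline leaf, 0.240 in stem, 0.244 in rosetta leaf, 0.249 in seed, 0.236 in shoot and 0.228 in root. Seed had the highest fraction at 9 of the 23 sites and root at 6. THFS had the widest distance, with 0.825 in seed and between 0.257 in cauline leaf and 0.485 in stem elsewhere. With 1 pooled value per tissue, such differences cannot be set against a spread between libraries.

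**Figure D4:**
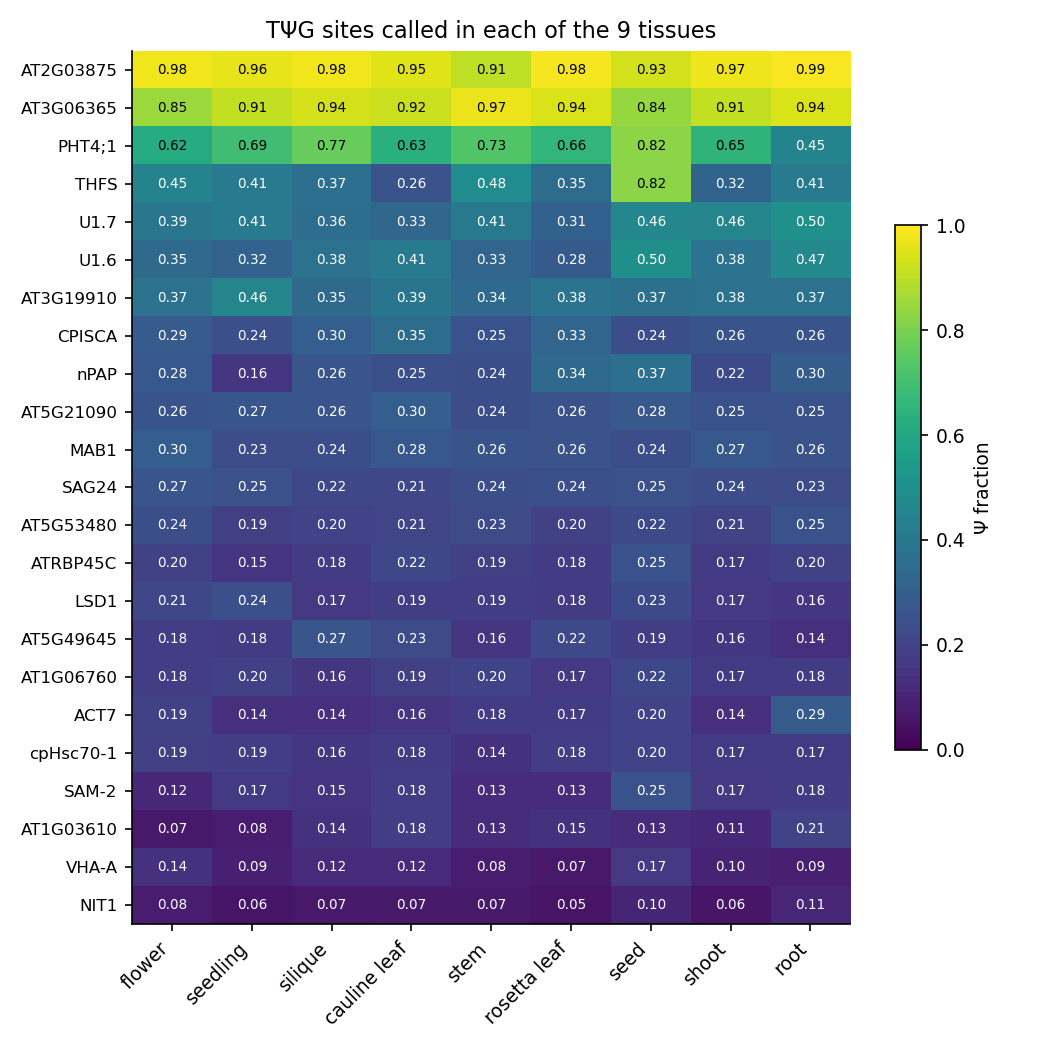
Ψ fraction (colour, 0 to 1) of the 23 TΨG sites called in each tissue, 1 row per site ordered by the mean over tissues and 1 column per tissue. Mean fractions ran between 0.962 (AT2G03875) and 0.0753 (NIT1), and the THFS site stood out in seed (0.825).

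TΨG sites in structured RNA had higher fractions than those in mRNA. The 10 sites in tRNA genes were all in tRNA-His, with the listed U at base 33 of 72, where tRNAs have a conserved U just before the anticodon. The base before it is also a U, and which of them carried Ψ cannot be told apart. They were called in 4 to 8 tissues each, with fractions between 0.716 and 1.00 and a median of 0.863 over 71 calls. At AT4G02055, a copy with an unrepeated window, the called fractions were 0.866 in flower, 0.814 in seedling, 0.798 in silique, 0.906 in cauline leaf, 0.824 in stem, 0.894 in rosetta leaf, 0.810 in seed and 0.725 in shoot. For 8 of the 10 sites the surrounding 31 bases were repeated, so these are not independent measurements of 10 genes.

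The U1 RNA, which pairs with the start of introns, held a TΨG site of the same sequence in 8 genes, with a median of 0.382 over 51 calls, and U1.9 held another site, called in 1 tissue at 0.441. U6, part of the catalytic core of the spliceosome, held 7 sites with a median of 0.530 over 20 calls. U4, which pairs with U6 before the spliceosome is active, held 4 sites with a median of 0.645 over 11 calls. The called fractions at the U1 site were between 0.241 and 0.503, and those of U4 between 0.517 and 0.793. The surrounding bases were repeated at 7 of these 8 U1 sites, 6 of the 7 U6 sites and all 4 U4 sites.

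The highest fractions among the 23 sites called in each tissue were at AT2G03875 and AT3G06365, annotated as non-coding RNA on chromosomes 2 and 3. Both sites lie downstream of an annotated 18S rRNA gene on the same strand, and AT3G06365 also follows an annotated 5.8S rRNA gene. Whether they belong to the same rRNA units was not tested, and they were not counted as rRNA here. AT2G03875 had between 0.906 in stem and 0.990 in root, and AT3G06365 between 0.842 in seed and 0.971 in stem. The 29 bases around the 2 sites were identical, so reads of either gene cannot be assigned with certainty. The 9 sites in genes annotated as rRNA, 18S and 5.8S, were called in few tissues each (1.78 on average). The surrounding bases were repeated in the genome at all 9, so reads can be split between copies. Base 1634 of 18S, for instance, was called in 3 tissues in AT2G01010 and in 4, partly different, in AT3G41768. The part of such splitting in the few calls was not tested. Poly(A) selection removes most rRNA and tRNA, so the values for these RNAs come from what remained. The paper states that the remaining rRNA was still covered deeply enough for analysis.

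A run of U before the G marked a separate kind of site. At 751 sites (67.1%) the listed U followed 1 U, at 264 it followed 2 and at 39 it followed 3 to 6. A further 66 sites followed 8 or 9 U, and none followed 7. These 66 differed in placement, with 47 at 3′-UTR positions, 10 at 5′-UTR positions, 7 in introns and 0 in coding sequence. Of these sites 61 (92.4%) were called in exactly 1 tissue, against 47.7% of the sites after 1 U, and none was called in 5 or more. Their median fraction over sites was 0.253, against 0.161 after 1 U. AT4G25940 was called only in flower, at 0.539 and 3.30 TPM, with uncalled fractions of up to 0.286 elsewhere, and TGA4, a bZIP transcription factor gene, only in stem, at 0.319. Whether the long run of U itself yields deletions was not tested. Without the sites after 4 or more U, 521 sites were called in exactly 1 tissue, the number called in each tissue stayed at 23, and between 238 sites in cauline leaf and 418 in flower were called.

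Called fractions were lower where the host gene was more highly expressed. Over called TΨG sites the Spearman rho between fraction and TPM was between −0.805 in seed and −0.638 in shoot (237 to 420 sites per tissue, which share the libraries of the tissue). Over called nuclear sites other than TΨG it was between −0.727 in seed and −0.516 in flower. Over all TΨG sites with a fraction above 0, called or not, it was weaker, between −0.463 in seed and −0.281 in root.

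By expression class the median fraction of TΨG calls was 0.419 below 10 TPM (82 calls), 0.251 between 10 and 30 TPM, 0.166 between 30 and 100 TPM, 0.125 between 100 and 300 TPM and 0.0838 at 300 TPM or more (476 calls). The lowest called fraction moved in the same way. It was 0.151 below 10 TPM and 0.103 between 10 and 30 TPM, so low fractions were listed as called only in genes of higher expression. How much of the relation comes from this limit was not tested.

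**Figure D5:**
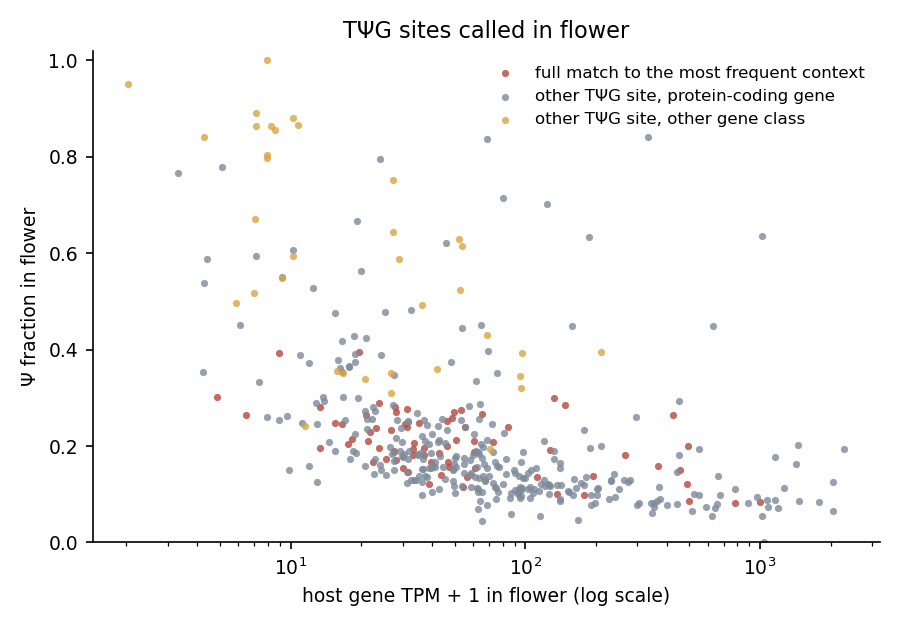
Ψ fraction of the TΨG sites called in flower (y axis) against TPM + 1 of the host gene in flower (x axis, log scale), 1 point per site, with sites of the most frequent 8 bases, other sites in protein-coding genes and sites of other gene classes marked. Low fractions are found at high TPM and high fractions mostly at low TPM.

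Genes were also grouped by function, on lists made from the annotation. Of all 27444 protein-coding genes 3.51% held a TΨG site. The list of photosystem, light-harvesting and Rubisco small subunit genes held 15 of 72 genes with one (20.8%), ribosomal proteins 25 of 294 (8.50%), translation factors 10 of 109 (9.17%) and heat shock proteins 8 of 85 (9.41%). These lists hold highly expressed genes, and the part of expression in the shares was not tested. Histones had 1 of 48 genes (HTB9), tubulins and actins 2 of 27 (ACT7 and ACT11), aquaporins 2 of 37 and pseudouridine synthases 0 of 23.

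The photosynthesis genes combined broad calls with low fractions. Their median over sites was 0.0708, against 0.153 over all protein-coding TΨG sites, and 8 of their 19 sites were called in at least 5 tissues, against 175 of 1022 over all protein-coding TΨG sites. LHCA4, an antenna protein of photosystem I, was called in each tissue but seed and root, between 0.0526 in shoot and 0.0843 in flower. Where called, RBCS1A, a Rubisco small subunit, had a site between 0.0737 in shoot and 0.125 in flower and another between 0.0476 in shoot and 0.0683 in rosetta leaf. For 3 of the other Rubisco small subunit genes the site lay in nearly the same sequence, and RBCS reads can be split between the copies.

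Ribosomal protein genes had a median of 0.109 over 27 sites. Most were called in 1 tissue. AT3G07110 was called in 8 tissues, between 0.0988 in shoot and 0.183 in stem, and AT1G29070, a ribosomal protein L34 gene, in 7. Both carry the frequent 8 bases.

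The list of seed storage, oleosin and late embryogenesis abundant genes gave 6 of 94 genes and 11 sites. Of these sites 6 had the frequent 8 bases. They include that of AT1G13930, named oleosin-B3-like, which was not a seed gene by expression. Its TPM was 9.52 in seed, the lowest of the 9 tissues, and 995 in flower. The AT1G13930 site was called in 6 tissues but not in seed. M17, which encodes a late embryogenesis abundant protein, had 5 TΨG sites, and 4 of them were the frequent 8 bases in repeats of its coding sequence. These 4 were called only in seed, at 0.0774, 0.0789, 0.0784 and 0.0730, where M17 had 4399 TPM. At each of the 4 the surrounding 31 bases occurred 2 times in the genome, so these are not 4 independent measurements. In the other tissues M17 had between 7.61 and 156 TPM, and the uncalled fractions ran up to 0.145. The call was thus limited to the tissue with by far the highest expression, while the fraction itself was not highest there. M10, a neighbouring late embryogenesis abundant gene, had 2 sites called only in seed, at 0.117 and 0.0430.

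For sites called only in 1 tissue, the expression of the host gene in that tissue was compared with the others. The call itself can depend on expression, as the lowest called fractions above show, so the counts of host genes are a description and give no support to a relation between Ψ and expression. The TPM columns, 2 for 7 of the tissues and 1 for rosetta leaf and seed, were compared by limma as each tissue minus the mean of the other 8. The tissue markers fixed for this check were highest in the labelled tissue, with AP3 at 146 TPM in flower, CRA1 at 5226 TPM in seed, CASP1 at 65.9 TPM in root and CESA4 at 502 TPM in stem, each the highest of the 9 tissues. Silique also had high seed and flower markers, such as CRA1 at 2189 TPM and SEP3 at 139 TPM.

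Of 563 host genes of TΨG sites called only in 1 tissue, 456 (81.0%) had higher TPM in that tissue and 59 (10.5%) lower TPM (adjusted p under 0.05). Over all genes and contrasts 37.2% of tests were higher and 38.9% lower. Host genes of other nuclear sites called only in 1 tissue gave a close share, with 3030 of 3762 (80.5%) higher there.

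In root 103 of 115 host genes were higher and 10 lower, where 50.4% of all 26078 genes were higher and 32.4% lower. Seed had 77 of 88 higher and 8 lower, where 22.8% of all genes were higher and 60.5% lower. For flower 86 of 105 were higher and 11 lower, against 47.0% and 29.6% of all genes. The median log2 difference of the host genes was 1.42 in root, 2.60 in seed and 0.74 in flower.

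In shoot 42 of 51 host genes were higher and 4 lower, against 49.3% and 24.1% of all genes. Silique had 33 of 42 higher and 5 lower, against 42.0% and 31.9%. Seedling had 40 of 60 higher and 8 lower, against 38.8% and 29.3%. Without the first seedling column 5 host genes were lower in seedling.

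Stem had 29 of 39 higher and 1 lower, against 32.1% and 43.6% of all genes. In cauline leaf 22 of 26 were higher and 3 lower, against 32.3% and 44.1%. In rosetta leaf 24 of 37 were higher and 9 lower, against 20.4% and 54.6%. Host genes with lower TPM in the tissue of the call were thus found in each tissue, and made up the largest share in rosetta leaf. The count of lower genes in stem was 2 without the second root column.

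Both kinds are seen among sites called only in 1 tissue with a wide gap to the others. HSP60, a chaperonin gene, was called only in root, at 0.266, with at most 0.0602 elsewhere. Its TPM was 99.6 in root and between 11.6 and 66.4 in the other tissues, a log2 difference of 1.42 (SE 0.03, adjusted p = 3.80e-12, limma). Another TΨG site of HSP60 was called in 2 tissues, with a mean fraction of 0.119.

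AT2G25730, a zinc finger FYVE domain gene, was called only in cauline leaf, at 0.402, with at most 0.0923 elsewhere, and its expression there was 0.92 higher on the log2 scale (SE 0.04, adjusted p = 1.11e-09, limma). AT4G25940 was called only in flower and its expression there fell by 1.09 on the log2 scale relative to the other 8 tissues (SE 0.07, adjusted p = 7.21e-08, limma). AT3G26580 was called only in rosetta leaf, at 0.643, after 9 U in an intron, and its log2 difference was −1.03 (SE 0.04, adjusted p = 8.98e-10, limma). The last 2 both follow long runs of U.

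ICE1, a bHLH transcription factor gene of the cold response, was called only in shoot, at 0.875 in an intron, with uncalled fractions of 0.282 in flower and stem, 0.131 in silique and 0 in the other 5 tissues. Its log2 difference in shoot was 0.30 (SE 0.05, adjusted p = 1.62e-04, limma). HSL1, a receptor kinase gene, was called only in silique, at 0.186, with at most 0.0969 elsewhere and a log2 difference of −0.15 (SE 0.05, adjusted p = 0.013, limma).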

How the data were processed

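The authors mapped the BID-seq reads to TAIR10, combined the replicate libraries of a tissue and deposited, for each site and tissue, a calibrated Ψ fraction and a flag for sites that passed their filter, whose threshold is not given in the sources used here. The authors also deposited TPM per gene, and their names do not say from which libraries, although each tissue has as many columns as input libraries. No read counts were used, so depth is unknown. The 237 organelle sites (139 plastid, 98 mitochondrial) were left out. Members and lists were chosen with earlier results of these data known.

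Sites were placed on TAIR10 with the annotation of the reference (longest CDS per gene), and the listed motif matched the genome at 100% of nuclear sites. A site was termed called where its flag was set. Shares have 95% Wilson intervals; sites are not replicates and were not tested. TPM was compared by limma 3.58.1 in R 4.3.3 (eBayes with trend, log2(TPM + 1), genes with at least 1 TPM in 1 column, Benjamini-Hochberg over 26078 genes per contrast, threshold 0.05). All columns entered one fit, so rosetta leaf and seed, with 1 column, were assumed to vary like the others. Whether columns of a tissue are separate plants is not stated, so p-values measure the spread between columns, which may be technical. On simulated data the fit recovered 99 of 100 genes changed by 1 and 100 of 100 changed by 2 on the log2 scale, with 11 false calls among 26078 genes (root contrast). The changed genes were drawn from genes of higher expression, and root has 2 columns. The recovery need not hold for genes of low TPM or for tissues with 1 column. Python 3.11.15, pandas 2.3.3, scipy 1.17.1 and matplotlib 3.10.9 were used.

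Named sites were members called in all tissues with the highest mean fraction, the mRNA members with the highest mean fraction among those called in at least 5 tissues, per tissue the member called only there with the widest gap, the highest member of each frequent 5-mer, members in structured RNA and members of the gene lists; other sites were named after their values were seen. Alternatives were minimum fractions of 0.05 and 0.1, means for medians, protein-coding genes only, unrepeated windows only, seed left out, sites called in at least 3 tissues, other transcript models and backgrounds, TPM pseudocount, filter and columns left out, and a replicate block; TPM minimums of 5 and 50 and the removal of long U runs were chosen after seeing the data.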

Additional observations from a re-analysis of the deposited data

How the results depend on the processing

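Over the alternatives 122 values of the main results stayed within their margin and 17 moved beyond it. The median fraction over calls of TΨG sites (0.167) was 0.115 over all fractions above 0, 0.155 in protein-coding genes, 0.158 without repeated windows and 0.238 as a mean. For other nuclear sites (0.161) the same alternatives gave 0.106, 0.150, 0.154 and 0.241, and a minimum fraction of 0.05 gave 0.178. As a mean, the TΨG value was thus below that of the other sites, the reverse of the order of the medians. With seed left out, 40 TΨG sites were called in each remaining tissue. Among sites called in at least 3 tissues the shares were 33.2% for GUUGU, 46.2% for G at the second base before and 74.6% for 1 U before. The ratio for GUUGU was 4.84 over UUG of the CDS only. Relative to UUG instead of nucleotides, the density ratio was 1.16 in the CDS and 0.765 in the 3′-UTR. The called share of the 8 bases was 46.9% at a minimum of 5 TPM.

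For host genes of sites called only in 1 tissue, leaving out single TPM columns gave 452 to 458 higher and 55 to 60 lower. Same-numbered columns did not deviate together (r between −0.07 and 0.09 over 21 pairs of tissues), so no shift by column number was seen across tissues. Whether columns share a batch of another kind cannot be told from this comparison. A replicate block gave 459 higher and 59 lower host genes. What limits all fractions is that 1 pooled value stands for each tissue, with unknown depth, and that a missing call in a tissue with little of the transcript cannot be told apart from missing Ψ.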

Other observations

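Among other TΨG sites in mRNA, PnsB1, a subunit of the chloroplast NDH complex, was called in 5 tissues between 0.150 in rosetta leaf and 0.263 in cauline leaf, while seed was listed at an uncalled 0.635 with 1.45 TPM and root at 0 with 1.07 TPM. VHA-A, a subunit of the vacuolar proton pump, was called in each tissue between 0.0699 in rosetta leaf and 0.166 in seed. The nuclear poly(A) polymerase nPAP had between 0.157 in seedling and 0.366 in seed.

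Of the 104 full matches in the CDS, 68 had the listed U in a GUU valine codon, 34 in a UGU cysteine codon and 2 in a UUG leucine codon. A UUG codon at a full match is followed by the stop codon UAG, and in the genes of the 20 TPM set 1 of 41 full matches in the CDS was in that frame, and it was called. A site outside annotated genes on chromosome 3 was called only in seed, at 0.900, with at most 0.151 elsewhere, and its surrounding bases occur 8 times in the genome.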
